A study of Drosophila melanogaster with 36 samples.

Results

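Transcript levels in indirect flight muscle (IFM) were compared between flies on a high-fat diet (HFD) under time-restricted feeding (TRF) and flies on the same diet under ad libitum feeding (ALF). The 12 libraries, of 36 in the whole series, were all those named for the HFD, with 6 HFD-TRF and 6 HFD-ALF libraries. All flies were wild-type Canton-S females, and the HFD was the regular food with coconut oil added. Regimens and diet had run until 3 weeks of age. HFD-ALF flies had food for 24 h per day. HFD-TRF flies had food for 12 h per day in the light phase (zeitgeber time 0 to 12, ZT0 to ZT12) and were moved to agar without food in the dark phase. Muscle from a pool of 10 flies was collected every 4 h, at ZT3, ZT7, ZT11, ZT15, ZT19 and ZT23, which gave 1 library per time point and regimen. The spread among the 6 libraries of a regimen therefore holds time of day as well as differences between pools, and p-values measure that joint spread. The WT flies on regular food and the *Sk2* mutant flies on regular food, each under ALF and TRF, show where the HFD flies differed. Their libraries, without 2 that the study excluded, were also in the fit that tested the HFD flies. They thus shared in its filter, scaling and estimate of spread. *Sk2* encodes a sphingosine kinase, and its mutant is the study's genetic obesity model.

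The IFM is the fibrillar muscle that powers the wings, and it is packed with mitochondria. De novo purine synthesis builds inosine monophosphate, the precursor of AMP and GMP, from ribose phosphate and amino acids. It draws glycine and folate-bound single-carbon units from reactions that also handle serine, sarcosine and methionine. In the fly, the Toll pathway senses microbes in the haemolymph through recognition proteins and a cascade of serine proteases, and drives genes for secreted peptides, mostly in the fat body.

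A gene is called higher or lower here where TRF and ALF differed by at least 0.32 on the log2 scale at an unadjusted p of at most 0.05 in edgeR's quasi-likelihood test. The study set the same cut-offs on the Wald test of DESeq2, which here is an alternative and called 360 genes higher and 846 lower. Levels are counts scaled to library size (CPM) after TMM normalization, and changes are log2 fold changes, TRF minus ALF. Of 9996 genes tested, 4.02% were called higher (402 genes) and 7.32% lower (732 genes), and these shares are the background for every list below. At a Benjamini-Hochberg adjusted p under 0.05, 6 genes remained (0.06%), so most of the calls below rest on an unadjusted p. In a fit of the 12 HFD libraries alone, 0 genes remained. The edgeR adjusted p of the 1134 called genes had a median of 0.247 and reached 0.358, and it is printed for the genes described in most detail. Of 122 called genes looked at in the fits that left out 1 library, 75 kept their call in all 12, 17 in 11 and 30 in fewer. The median change over all genes was 0.03. Of the 402 genes called higher, 141 were higher at all 6 time points, and of the 732 called lower, 91 were lower at all 6. Over all genes tested, 3.62% were higher and 1.52% lower at all 6. Called genes share a direction more often by construction, since the same libraries gave the calls. All 6 HFD-TRF libraries lay above all 6 HFD-ALF libraries in 20 genes (0.2% of those tested) and below them in 6 genes (0.06%). The genes called lower had a median mean count of 111, against 528 for those called higher and 341 for all tested.

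Libraries held 7647675 to 18777695 counts under ALF and 12017403 to 30682673 under TRF. A count of 3, taken as the floor, corresponded to between 0.102 and 0.384 CPM, which covers counting error only. Actin *Act88F*, the actin isoform of IFM, stood between 2311 and 9055 CPM in the 12 libraries, and the summed level of 12 IFM markers ranged from 28019 to 51733 CPM. None of these 12 markers was called in either direction. Other cell types were present as well. The summed level of 58 neuronal genes was 3854 to 4026 CPM in HFD-ALF at ZT3 and ZT23 and 1296 to 2828 CPM in the other 10 libraries. The summed level of 38 gut and digestive genes ranged from 407 to 11429 CPM and was highest in HFD-ALF at ZT7. Libraries at ZT7 stood apart in direction too. Of the 13 purine, folate and glycine genes called higher, 13 of 13 were higher under TRF at each of the other 5 time points, but 9 of 13 were lower under TRF at ZT7. The summed level of 16 fat body markers at ZT7 was 15071 CPM under TRF, the lowest of the 12 libraries, and 31846 CPM under ALF. It was lower under TRF at ZT19 too (26107 against 31595 CPM) and higher at the remaining time points. The part of fat body RNA in the purine, folate and glycine changes was not tested. Without both ZT7 libraries, 657 genes were higher and 865 lower, and 65 had an adjusted p under 0.05. Whether the regimen labels of the 2 ZT7 libraries are right could not be checked, since both regimens used flies of the same genotype, and all ZT7 values are given as labelled. The setting without them, like those without the libraries highest in neuronal or purine genes, was chosen after the values were seen. In bulk muscle, fewer cells of a type and less RNA per cell cannot be told apart.

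**Figure D1:**
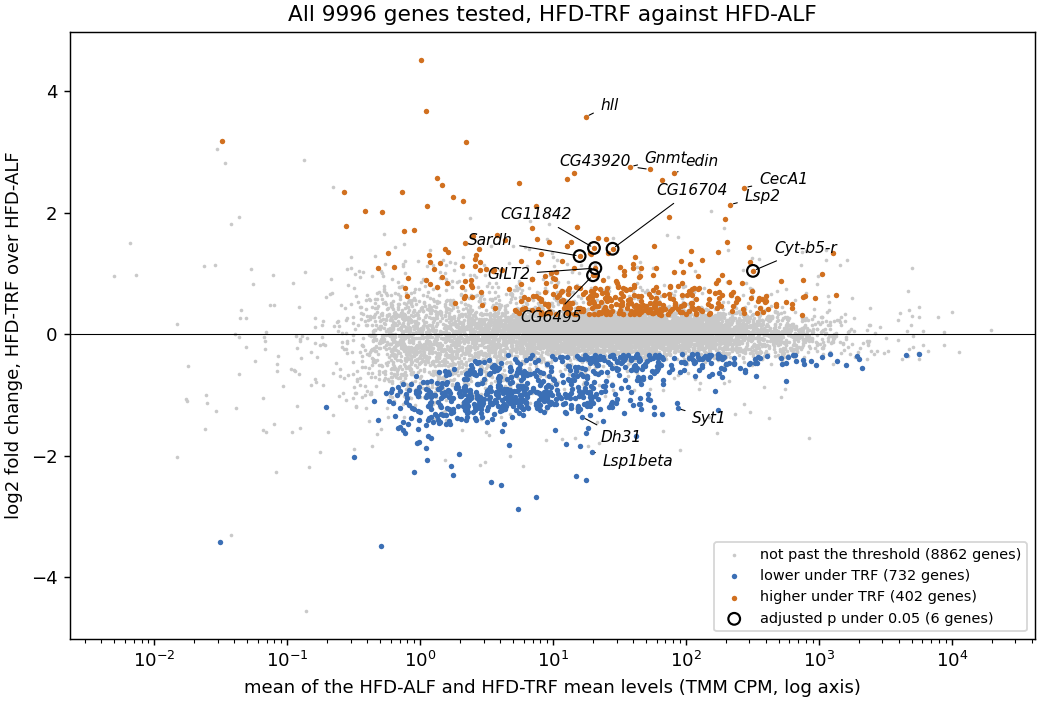
Change of each of the 9996 genes tested (y axis, log2 fold change, HFD-TRF minus HFD-ALF) against its level (x axis, the mean of the HFD-ALF and HFD-TRF mean levels in CPM, log axis). Coloured points mark the 402 genes called higher and the 732 called lower, and the 6 genes with an adjusted p under 0.05 all lie above 0.

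In de novo purine synthesis, 7 of the 11 members tested were called higher under TRF and 0 lower, against 4.02% and 7.32% of all genes. The median change of the list was 0.63 against 0.03 over all genes. All 7 were higher under TRF at 5 time points, and 5 of the 7 were lower at ZT7. *Prat2*, which encodes the amidotransferase of the committed first step (chromosome 3L:6911999-6914876, minus strand, dm6), had the smallest p of the list. Its level ranged from 49.0 to 114 CPM under ALF (median 86.1) and from 95.1 to 363 CPM under TRF (median 172). Only the lowest TRF library, at ZT19, lay inside the ALF range, and TRF was above ALF at 6 of 6 time points. The change was 1.21 ± 0.26 (SE, n = 6 per group; edgeR adjusted p = 0.0588). *CG11089*, the enzyme of the closing steps to inosine monophosphate, stood between 32.9 and 85.8 CPM under ALF (median 61.3) and between 66.8 and 332 CPM under TRF (median 105). It rose by 1.36 ± 0.34 (edgeR adjusted p = 0.132) and was higher at 5 of 6 time points.

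The middle steps moved in the same direction. *ade3* (Gart), a protein with 3 enzyme activities of the pathway in animals, ranged from 32.9 to 99.6 CPM under ALF (median 67.6) and from 51.9 to 322 CPM under TRF (median 124). *ade2* (Pfas), the amidine synthase, ranged from 61.4 to 235 CPM under ALF (median 104) and from 88.3 to 466 CPM under TRF (median 145). The groups overlapped in both genes, and the high TRF values were those of ZT11 and ZT15, with ZT3 added for *ade3*. The changes were 1.15 ± 0.34 for *ade3* and 0.88 ± 0.31 for *ade2* (edgeR adjusted p = 0.179 and 0.227). *AdSL* (adenylosuccinate lyase) rose by 0.83 ± 0.23, *ade5* (Paics) by 0.63 ± 0.25 and *CG6767* (Prps), which makes the activated ribose that starts the pathway, by 0.41 ± 0.19 (edgeR adjusted p = 0.17, 0.254 and 0.32). An exact two-sided permutation test over the 12 libraries, not adjusted for the 64 genes so tested, gave p = 0.00433 for *Prat2*, 0.0108 for *CG11089*, 0.126 for *ade3*, 0.173 for *ade2*, 0.0195 for *AdSL*, 0.0736 for *ade5* and 0.0368 for *CG6767*. Of the 57 genes so tested that edgeR called, 14 had a permutation p above 0.05.

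The 4 members that were not called lie at the branch beyond inosine monophosphate or duplicate the first step. *AdSS*, which commits the product to AMP, had a change of 0.07, and *ras* (the dehydrogenase towards GMP) and *bur* (GMP synthetase) had changes of 0.09 and 0.14. *Prat*, the paralogue of *Prat2*, had a change of -0.05. The list leaned on a few libraries. Without HFD-TRF at ZT11, 4 members were called higher, with *ade2*, *ade5* and *CG6767* lost, and without HFD-TRF at ZT11 and ZT15 together only *Prat2* (0.79) and *AdSL* (0.55) were. Without both ZT7 libraries the count was again 7, with *Prat2* at 1.40 (edgeR adjusted p = 0.0114) and *CG11089* at 1.64 (adjusted p = 0.0182).

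The glycine, sarcosine and methionine list had 4 of 11 members called higher and 0 called lower, with a median change of 0.18. Called were *Gnmt* (CG6188), which methylates glycine to sarcosine, *Sardh* (CG6385), which returns sarcosine to glycine, *Tdh* (CG5955), a threonine dehydrogenase on a route to glycine, and *CG10621*, a homocysteine methyltransferase. *Gnmt* (3R:12674608-12676084, plus strand) ranged from 1.35 to 27.01 CPM under ALF (median 4.34) and from 10.2 to 121 CPM under TRF (median 62.0). The lowest TRF library was the one at ZT7, and it fell inside the ALF range, whose highest library was also that of ZT7. The changes were 2.76 ± 0.76 for *Gnmt* (CG6188), 1.28 ± 0.25 for *Sardh* (CG6385) and 1.03 ± 0.31 for *Tdh* (CG5955), with edgeR adjusted p-values of 0.16, 0.0244 and 0.191. *CG10621* ranged from 9.94 to 21.3 CPM under ALF and from 12.0 to 60.0 CPM under TRF, with ZT7 and ZT23 as the low TRF libraries. It rose by 1.34 ± 0.37 (edgeR adjusted p = 0.166), at 6 of 6 time points. *Tdh* ranged from 3.08 to 10.1 CPM under ALF and from 6.34 to 25.6 CPM under TRF.

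The rest of the cycle was not called. *Sam-S*, which makes the methyl donor, had a change of 0.03, *Ahcy*, which clears the methylation by-product, 0.18, and *Cbs*, which withdraws homocysteine, 0.22. The 4 genes were called in every setting tried, apart from the filter on at least 10 counts in every library, which left 3. They were also called in the feeding window (ZT3, ZT7, ZT11) and the fasting window (ZT15, ZT19, ZT23) taken alone, where 2.31% and 4.79% of all genes were higher.

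Of 10 folate genes, 2 were called higher and 0 lower (median 0.33). *Nmdmc*, a mitochondrial methylenetetrahydrofolate dehydrogenase, ranged from 27.7 to 91.5 CPM under ALF (median 50.5) and from 46.4 to 187 CPM under TRF (median 93.3), and rose by 1.02 ± 0.33 at 6 of 6 time points. *pug*, its cytoplasmic counterpart, rose by 0.68 ± 0.24 (edgeR adjusted p = 0.207 and 0.227). *Shmt* (CG3011), which moves the carbon of serine onto folate, had a change of 0.53 ± 0.30 and did not pass. Neither *Nmdmc* nor *pug* was called without HFD-TRF at ZT11 and ZT15. Among 12 genes of purine breakdown and salvage, *CG16758* (a purine nucleoside phosphorylase, 0.69 ± 0.23) and *Adgf-D* (an adenosine deaminase, 0.67 ± 0.19) rose and none fell.

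**Figure D2:**
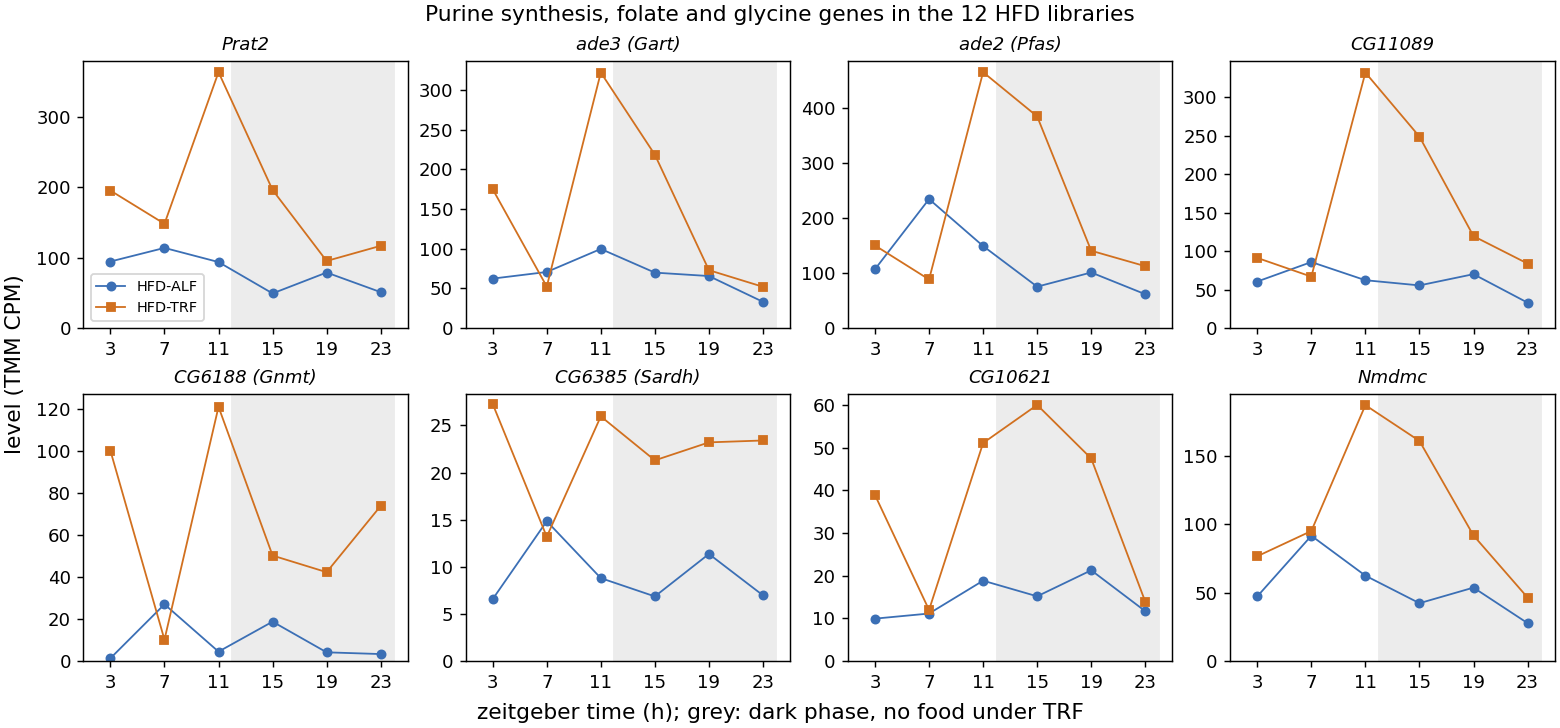
Levels of 8 purine, folate and glycine genes (y axis, CPM) by zeitgeber time in h (x axis), each point 1 library of HFD-ALF (blue) or HFD-TRF (orange), with lines joining a regimen's libraries and grey for the dark phase. HFD-TRF points lie mostly above HFD-ALF points, and in *Gnmt* the lowest TRF library (10.2 CPM) and the highest ALF library (27.01 CPM) are both those of ZT7.

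The 6 genes with an adjusted p under 0.05 all rose. *Cyt-b5-r*, a cytochrome b5 domain protein (2L:16788774-16790721, minus strand), ranged from 172 to 245 CPM under ALF (median 213) and from 275 to 601 CPM under TRF (median 425). The groups did not overlap, which held for 0.2% of all genes in this direction. The change was 1.04 ± 0.19 (edgeR adjusted p = 0.0244). *CG16704* (2L:3692123-3692587, minus strand), a small protein related to Kunitz protease inhibitors, was at 11.2 to 20.2 CPM under ALF and 25.3 to 49.4 CPM under TRF, again without overlap. *CG6495* (2L:10761116-10764971, plus strand) was at 9.93 to 17.3 CPM under ALF and 16.3 to 37.99 CPM under TRF, and only the TRF library at ZT23 fell inside the ALF range. It rose by 0.97 ± 0.19 (edgeR adjusted p = 0.0244). *CG10157* (GILT2), of the lysosomal thiol reductase family, *CG11842*, a serine protease, and *Sardh* make up the remainder. Each of the 6 kept its call at the study's threshold whichever library was left out, while their adjusted p-values reached 0.0728 to 0.12 in the least favourable of those fits.

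Among genes higher at every time point whose mean count reached 50, the largest rise was that of *hll* (CG4500), an acyl-CoA synthetase family member. It stood between 1.47 and 5.43 CPM under ALF (median 2.22) and between 2.48 and 83.7 CPM under TRF (median 23.9), with the 3 highest libraries at ZT11, ZT15 and ZT19. The change was 3.57 ± 0.91 (edgeR adjusted p = 0.141), and *hll* was also called higher in WT, at 2.18. *yellow-d*, of the yellow protein family, rose by 1.35 ± 0.51, with changes of 0.24 in the feeding window and 2.36 in the fasting window. *Ilp6*, an insulin-like peptide of the fat body, was at 14.1 to 29.3 CPM under ALF and 31.9 to 43.5 CPM under TRF, without overlap, and rose by 0.61 ± 0.17. *Idgf5*, a secreted chitinase-like growth factor, rose by 0.76 ± 0.16 (edgeR adjusted p = 0.0588).

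Immune genes formed the other large group that rose. Over 5 immune lists, 79 genes were tested, of which 33 were called higher (41.8%) and 1 lower (1.27%), with a median change of 0.53. At ZT11 and ZT19 all 33 were higher under TRF, at ZT15 and ZT23 32 were, at ZT3 27 and at ZT7 20.

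Among recognition proteins of bacterial peptidoglycan, 6 of 10 rose and none fell (median 0.69). *PGRP-LB*, an amidase that degrades peptidoglycan, ranged from 6.50 to 24.3 CPM under ALF (median 7.97) and from 17.1 to 63.6 CPM under TRF (median 21.6). The ALF library at ZT7 was the only one above the lowest TRF library. *PGRP-LB* rose by 1.58 ± 0.53 and *PGRP-SB1*, another amidase, by 1.43 ± 0.50 at 6 of 6 time points (edgeR adjusted p = 0.225 and 0.227). *PGRP-SA*, the receptor that feeds the Toll cascade, rose by 0.74 ± 0.27, and *PGRP-LC*, a receptor of the Imd pathway, by 0.33 ± 0.13. The call of *PGRP-LC* was held in 6 of 12 fits that left out 1 library.

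In the Toll protease cascade and melanization list, 13 of 24 members rose and none fell (median 0.39). The proteases upstream of the receptor included *SPE*, which cleaves the Toll ligand. It ranged from 45.3 to 199 CPM under ALF (median 63.0) and from 112 to 190 CPM under TRF (median 173). In ALF, 5 of 6 libraries lay below all TRF libraries, and the exception, at ZT7, was the highest of the 12. *SPE* rose by 0.95 ± 0.25 (edgeR adjusted p = 0.141). The melanization protease *Hayan* rose by 0.95 ± 0.24 and *grass*, a protease upstream of *SPE*, by 0.76 ± 0.24, each at 6 of 6 time points (edgeR adjusted p = 0.141 and 0.206). The receptor *Tl* (0.33), its kinase *pll* (0.44), the transcription factor *Dif* (0.32) and the inhibitor *cact* (0.41) were all called higher, as was the serpin *nec* (0.70), which restrains the cascade. Of 15 serpins, 6 rose and none fell (median 0.44), with *Spn88Ea* at 0.84 ± 0.34 and *Spn42Da* at 0.50 ± 0.17. Leaving out HFD-ALF at ZT7 moved *SPE* to 1.42 and *Spn88Ea* to 1.17.

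The secreted products varied more among libraries. Of 15 genes tested in the list of short peptides induced by Toll, 6 rose and none fell (median 0.54). The list also holds *SPH93* (CG6639), a serine protease homologue. *BomT1* (CG43202) ranged from 26.7 to 58.6 CPM under ALF and from 28.3 to 120 CPM under TRF, and *Dso1* (IM4) from 315 to 1545 CPM and from 587 to 2159 CPM. In the fasting window 7 members of this list were called higher (4.79% of all genes), and in the feeding window 0 were (2.31% of all genes). The medians were 0.97 and 0.23. The difference between windows passed the threshold for 1 of them. The number of members called fell to 2 without HFD-ALF at ZT11, HFD-ALF at ZT15 or HFD-TRF at ZT19.

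Antimicrobial peptides had a median change of 1.23, but only 3 of 18 were called higher and 1 lower. *CecC*, a cecropin, ranged from 10.7 to 63.0 CPM under ALF (median 25.5) and from 55.3 to 231 CPM under TRF (median 102), with a single ALF library, at ZT7, inside the TRF range. It rose by 1.93 ± 0.71 (edgeR adjusted p = 0.231), at 6 of 6 time points. *CecA1* and *CecB* rose by 2.41 ± 1.16 and 1.45 ± 0.66, and were called in 5 and 6 of 12 fits that left out 1 library. *Drsl3*, of the drosomycin family, fell by 1.81 and was split 3 to 3 over the time points. Summed over all 20 members, the level was 12770 CPM in HFD-ALF at ZT7 and 1934 to 4113 CPM in the other ALF libraries. Under TRF it was 5121 to 17376 CPM. Without HFD-ALF at ZT7 9 members were higher, and without HFD-ALF at ZT3 and ZT23 none was. *edin*, which is induced by infection, showed the same pattern, at 5.06 to 11.1 CPM in 5 ALF libraries, 94.7 CPM in HFD-ALF at ZT7 and 30.4 to 243 CPM under TRF. Its change was 2.64 ± 1.12.

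Markers of the fat body, the main source of these peptides, did not move in 1 direction. Of 14, *Tsf1* (the iron carrier transferrin, 1.33 ± 0.38), *Lsp2* (a storage hexamerin, 2.13 ± 0.67) and *Ilp6* were higher, and *Lsp1beta* (another hexamerin, -1.94 ± 0.59) and *AkhR* (the adipokinetic hormone receptor, -0.45) were lower. The edgeR adjusted p was 0.17 for *Tsf1* and 0.206 for *Lsp2*, and *Lsp2* had an exact permutation p of 0.13. The summed level of all 16 fat body markers, tested or not, ranged from 18347 to 34235 CPM under ALF and from 15071 to 55226 CPM under TRF. *Tsf1* ranged from 443 to 1181 CPM under ALF and from 632 to 3155 CPM under TRF, and *Lsp1beta* from 10.1 to 62.7 CPM under ALF and from 1.06 to 14.7 CPM under TRF, where it was lower at 6 of 6 time points. Of 12 haemocyte markers 1 was higher, the transcription factor *srp* (0.41), and none was lower. The part of fat body or haemocyte RNA in the immune changes was not tested.

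**Figure D3:**
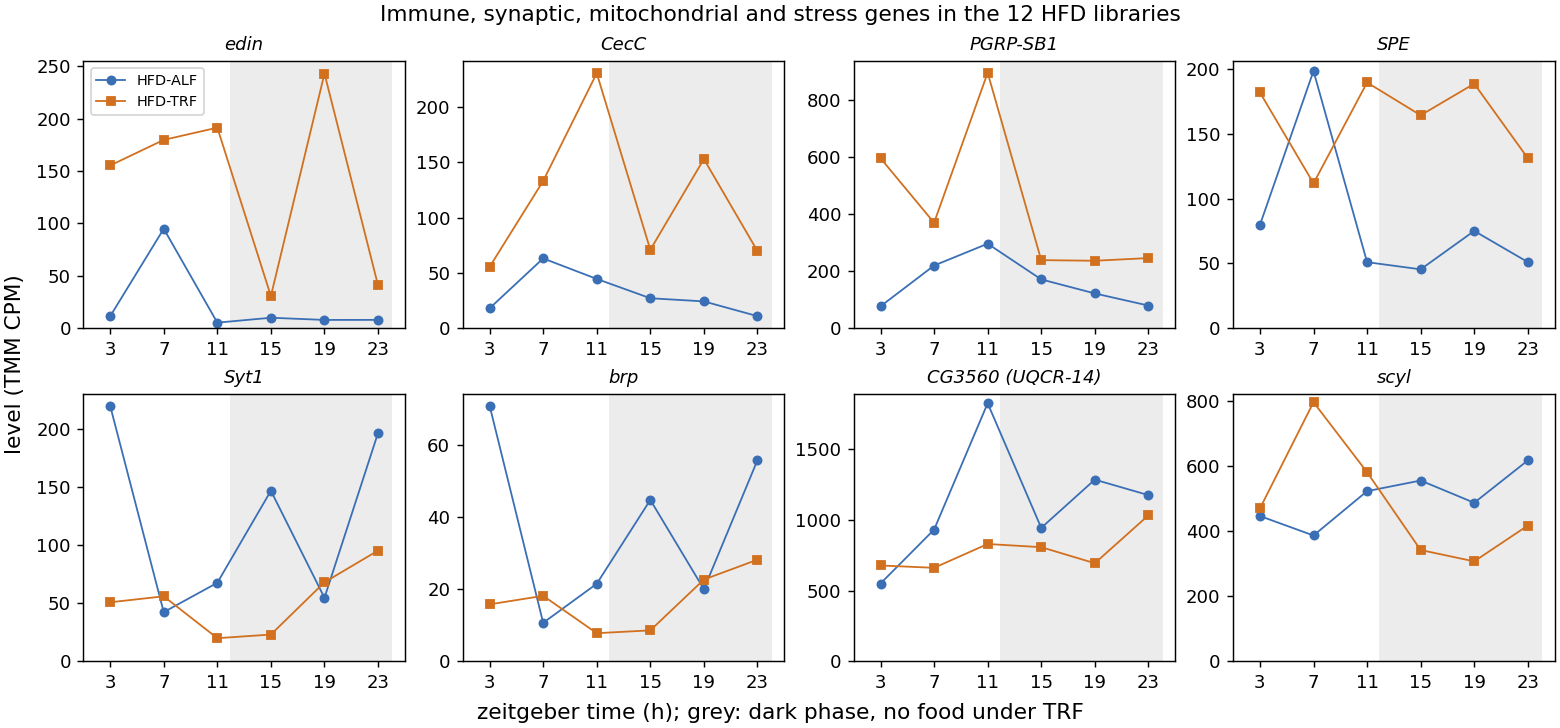
Levels of 8 immune, synaptic, mitochondrial and stress genes (y axis, CPM) by zeitgeber time in h (x axis), each point 1 library of HFD-ALF (blue) or HFD-TRF (orange), with lines joining a regimen's libraries and grey for the dark phase. For *CecC* and *SPE* the HFD-ALF library of ZT7 (63.0 and 199 CPM) stands above the other ALF libraries, and for *Syt1* the HFD-ALF libraries of ZT3 and ZT23 (219 and 196 CPM) are the highest.

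Neuronal and synaptic genes were the largest group called lower. Of 58 tested, 46 were lower and 0 higher under TRF, with a median change of -1.04. *Syt1*, the calcium sensor of synaptic vesicles, ranged from 42.1 to 219 CPM under ALF (median 107) and from 19.7 to 95.1 CPM under TRF (median 53.2). The high ALF libraries were those of ZT3, ZT15 and ZT23, and the other 3 lay inside the TRF range. The change was -1.22 ± 0.43 (edgeR adjusted p = 0.227). *nSyb* (synaptobrevin), *brp* (an active zone scaffold), *para* (the voltage-gated sodium channel) and *cpx* (complexin) had changes of -1.14, -1.15, -1.05 and -0.94. In the exact permutation test *Syt1*, *nSyb* and *brp* had p = 0.0671, 0.0866 and 0.0844, none of them under 0.05. The sodium channel subunit *tipE* (-1.08 ± 0.34), the adhesion molecule *Dscam3* (-1.48 ± 0.43) and the neuropeptide *Dh31* (-1.36 ± 0.47) were lower at 6 of 6 time points.

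The calls of the neuronal list depended on few libraries. All 46 were lower under TRF at ZT3, ZT11, ZT15 and ZT23, while 37 were higher under TRF at ZT7 and 41 at ZT19. Without HFD-ALF at ZT3 and ZT23, 1 of 58 was called lower (median -0.36), and without HFD-TRF at ZT11 and ZT15, 2 were (median -0.69). Without HFD-ALF at ZT3 alone, 16 were. *elav*, the pan-neuronal marker, was not called, with 24.6 to 53.7 CPM under ALF, 21.1 to 42.6 CPM under TRF and a change of -0.22 ± 0.19. Neither were *Syx1A* (0.31), *dlg1* (0.05) or *dnc* (0.06). Of 9 glial markers, *nrv2* (-0.49 ± 0.15) and the astrocyte gene *alrm* (-1.85 ± 0.59) were lower, and the glial transcription factor *repo* had a change of -0.21 ± 0.18. *alrm* was at 36.5 to 54.2 CPM in HFD-ALF at ZT3, ZT15 and ZT23, the same libraries in which *Syt1* was high, and at 2.32 to 14.8 CPM in the other 9 libraries. Whether the amount of nerve tissue in the dissected muscle differed was not tested.

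Further genes outside the neuronal list fell as well. *CG18609* was at 16.9 to 43.1 CPM under ALF and 3.70 to 14.8 CPM under TRF, without overlap, which held for 0.06% of all genes in this direction. It changed by -1.63 ± 0.57 (edgeR adjusted p = 0.227), with 0.52 in WT and -0.12 in *Sk2*, where it was not called. *CG7227* (-1.33 ± 0.34) was lower at 6 of 6 time points and was called lower in WT and in *Sk2* too. *CG7997*, named by the study, was at 64.3 to 96.4 CPM under ALF and 36.7 to 81.0 CPM under TRF, lower at 5 of 6 time points, and fell by 0.75 ± 0.21 on the log2 scale.

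Subunits of oxidative phosphorylation had mostly negative changes. Of 71 tested, 17 were called lower and 0 higher, 69 had a change below 0, and the median was -0.35. *UQCR-14* (CG3560), a subunit of complex III, ranged from 549 to 1826 CPM under ALF (median 1060) and from 661 to 1032 CPM under TRF (median 750). The TRF values lay wholly inside the ALF range, and the ALF library at ZT3 was the lowest of the 12. The change was -0.51 ± 0.18 (edgeR adjusted p = 0.227), and the exact permutation p was 0.117. *ND-AGGG* (CG40002) of complex I, *COX7AL2* (CG34172) of complex IV and *UQCR-6.4* (CG14482) of complex III had changes of -0.75, -0.68 and -0.59. All 17 were higher under TRF at ZT3 and lower at ZT11 and ZT19. Without HFD-ALF at ZT3, 42 were called lower, and without HFD-ALF at ZT11, 4 were. Without both ZT7 libraries the count was 9, and blocking on time point gave 11. The 17 subunits had a median exon length of 712 bases, against 912 for the 54 not called. Over all lists and genes, those called lower had a median of 2894.5 bases, against 2066 for all tested. Change and exon length had a Spearman correlation of 0.03 over all genes.

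Other mitochondrial lists held fewer calls. The 3 of 22 tricarboxylic acid cycle genes called lower were all subunits of NAD-dependent isocitrate dehydrogenase, *Idh3a* (l(1)G0156, -0.38 ± 0.18), *Idh3b* (CG6439, -0.33 ± 0.16) and *Idh3g* (CG5028, -0.37 ± 0.17). *Idh3g* ranged from 611 to 1662 CPM under ALF and from 671 to 1094 CPM under TRF. Each of the 3 lost its call in 5 to 7 of the 12 fits that left out 1 library. Of 72 mitochondrial ribosomal proteins 7 were lower and 0 higher, among them *mRpS7* (-0.56 ± 0.19) and *mRpS33* (-0.53 ± 0.17), a share of 9.72% against 7.32% of all genes. The exact permutation p was 0.104 for *mRpS7* and 0.177 for *Idh3g* (CG5028).

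**Figure D4:**
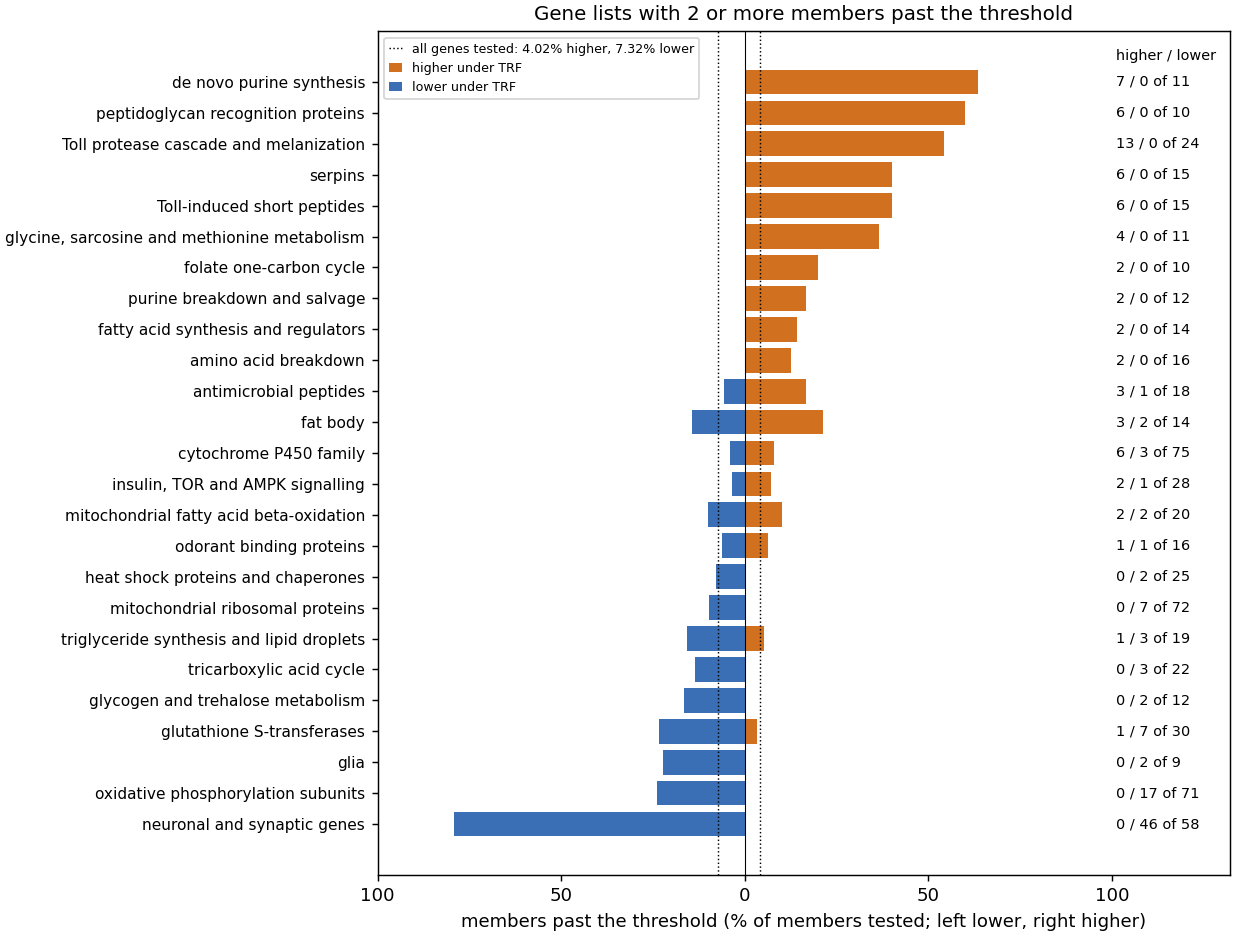
Gene lists with 2 or more members past the threshold (y axis), with the share of members tested that were called higher (right) or lower (left) under TRF in percent (x axis) and their numbers. Dotted lines mark the shares over all genes tested, 4.02% higher and 7.32% lower. Purine synthesis (7 of 11) has the highest share called higher and neuronal genes (46 of 58) the highest share called lower.

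Genes of lipid handling changed in small numbers. Of 19 genes of triglyceride synthesis and lipid droplets, 3 were lower. *Dgat2* (CG1942), the acyltransferase of the last step to triglyceride, was at 1.27 to 3.63 CPM under ALF (median 2.12) and at 0.528 to 1.46 CPM under TRF (median 1.18). It was lower at 6 of 6 time points, the ranges overlapped only slightly, and the change was -0.94 ± 0.35 (edgeR adjusted p = 0.24). *Jabba*, a lipid droplet protein, ranged from 191 to 332 CPM under ALF and from 112 to 210 CPM under TRF and fell by 0.50 ± 0.19. *CG1946* rested on HFD-ALF at ZT7, without which its change went from -2.27 to -0.69. *Lip3*, the single member called higher, was called in 3 of the fits that left out a library, and its mean levels were 0.157 and 0.611 CPM.

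Fatty acid synthesis had 2 of 14 members called, both higher. *ACC* (acetyl-CoA carboxylase) was at 293 to 377 CPM under ALF and 303 to 784 CPM under TRF, where only the ZT7 library lay inside the ALF range. It rose by 0.54 ± 0.18, and *ATPCL* (ATP citrate lyase) by 0.64 ± 0.25 (edgeR adjusted p = 0.207 and 0.243). Without HFD-TRF at ZT3 the change of *ACC* was 0.34, still called, and that of *ATPCL* 0.40, no longer called. That library had the highest summed level of fat body markers, 55226 CPM. At ZT19, where *ACC* was also higher under TRF (505 against 293 CPM), that sum was lower under TRF. The part of fat body RNA in the rise of *ACC* and *ATPCL* was not tested. In the mitochondrial beta-oxidation list, 2 of 20 rose and 2 fell. *CG3902* (0.58 ± 0.21) and *CG9547* (0.93 ± 0.27), both of the acyl-CoA dehydrogenase family, were higher. Whether these 2 act on fatty acids was not tested. *Mcad* (CG12262, -0.45 ± 0.21), the medium-chain dehydrogenase, and *colt* (-0.32 ± 0.14), the carnitine carrier, were lower. *CG3902* lost its call without HFD-TRF at ZT3, *Mcad* in 6 of the 12 fits that left out 1 library and *colt* in 4.

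Sugar metabolism gave 1 call in 16 genes of glycolysis, *Hex-C* (a hexokinase, 0.62 ± 0.19), and 2 in 12 genes of glycogen and trehalose metabolism, *GlyS* (glycogen synthase, -0.39 ± 0.16) and *UGP* (-0.33 ± 0.15), which makes its substrate. In insulin, TOR and AMPK signalling, *Ilp6* and *fbp* (fructose bisphosphatase, 0.42 ± 0.19) rose and *chrb*, an inhibitor of TOR, fell by 0.59 ± 0.21, out of 28. Of 16 genes of amino acid breakdown, *Got2* (mitochondrial aspartate aminotransferase, 0.59 ± 0.18) and *BckdhA* (CG8199, 0.33 ± 0.12) rose. With 1 library left out, *UGP* lost its call in 6 of 12 fits (to -0.20 at the weakest), *fbp* and *BckdhA* in 5 each and *GlyS* in 3.

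Among 30 glutathione S-transferases, which conjugate toxic compounds, 7 were lower and 1 was higher (median -0.19). *GstO2* ranged from 259 to 429 CPM under ALF (median 315) and from 171 to 286 CPM under TRF (median 216). The TRF library at ZT23 and the ALF libraries at ZT3, ZT7 and ZT23 were those that overlapped. *GstO2* fell by 0.62 ± 0.14 (edgeR adjusted p = 0.0835), the smallest adjusted p of its list. *GstD2* (-1.57 ± 0.41), *GstD10* (-1.59 ± 0.50) and *GstD5* (-1.23 ± 0.44) fell too, while *GstD8* had a change of 2.26 ± 1.02. Of 75 genes tested in the cytochrome P450 list, 6 were higher and 3 lower. The list was matched by name prefix and also took in *Cyp1* and *Cyp40* (CG8336), which are cyclophilins. *Cyp6g1*, known for insecticide resistance, was at 1.09 ± 0.39, with changes of 0.10 in the feeding and 2.21 in the fasting window.

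No member was called in the lists of 37 sarcomere proteins, 85 cytoplasmic ribosomal proteins, 33 proteasome subunits, 20 autophagy genes, 18 cuticular proteins, 27 genes of DNA replication, 9 ovary genes, 36 gut genes, 10 markers of other muscle or 5 Turandot genes. DESeq2 called 1 gene lower among the sarcomere proteins, 1 among the cuticular proteins and 1 among the IFM markers, and none in the others. *Mhc*, the myosin heavy chain, had a change of 0.06 ± 0.20. *fln* (flightin) and *TpnC4*, both specific to IFM, had changes of -0.51 ± 0.26 and -0.49 ± 0.28. With 1 library left out, *fln* was called lower in 4 of 12 fits (HFD-ALF at ZT3, ZT7 or ZT15 or HFD-TRF at ZT23 omitted) and *TpnC4* in 3 (HFD-ALF at ZT3 or ZT7 or HFD-TRF at ZT23), with changes down to -0.70 and -0.75. *Act88F* ranged from 2311 to 4890 CPM under ALF and from 3583 to 9055 CPM under TRF and had a change of 0.70 ± 0.49 at 6 of 6 time points, which did not pass in edgeR (adjusted p = 0.554). In the exact permutation test its p was 0.0216, and edgeR on the 12 HFD libraries alone called it higher at 0.69. Among the gut genes 4 were called higher without both ZT7 libraries. Of the rest, 1 of 13 clock genes rose (*cyc*, 0.37 ± 0.16), 2 of 25 heat shock proteins and chaperones fell (*Hsc20*, -0.47, and *DnaJ-1*, -0.57), and 1 of 31 UDP-glycosyltransferases fell. Odorant binding proteins had 1 of 16 higher (*Obp99a*, 1.03) and 1 lower (*Obp44a*, -1.42), and 1 of 5 neuromuscular glutamate receptor subunits rose (*GluRIIC*, 0.91). With 1 library left out, *GluRIIC* kept its call in 5 of 12 fits, *DnaJ-1* in 6 and *cyc* in 8.

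The feeding and fasting windows were then taken apart, with 3 libraries per regimen in each. In the feeding window 231 genes were higher (2.31%) and 417 lower (4.17%), and in the fasting window 479 were higher (4.79%) and 392 lower (3.92%). The difference between the windows passed the threshold in 354 genes (3.54%), of which 0 had an adjusted p under 0.05 in edgeR or DESeq2, with 355 at an unadjusted p under 0.05. Purine synthesis had 4 members higher in the feeding and 6 in the fasting window, with medians of 0.50 and 0.87, and 1 gene whose change differed between the windows. Neuronal genes had 29 lower in the feeding and 5 in the fasting window, with medians of -1.23 and -0.79, and for 2 of them the difference passed. Of 36 gut and digestive genes, 9 differed between the windows (3.54% of all genes), with medians of -1.62 in the feeding and 1.45 in the fasting window. In the fasting window 5 of them were higher, and in the feeding window 0 were called. The trypsins *alphaTry* and *betaTry* had changes of -1.99 and -2.12 in the feeding window and 1.44 and 1.66 in the fasting window. The summed level of all 38 gut genes was 7341 and 11429 CPM in HFD-ALF at ZT3 and ZT7. It was 8040 CPM in HFD-TRF at ZT15 and 407 to 2627 CPM in the other 9 libraries. The part of gut RNA in these changes was not tested.

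Among the 5 genes with the smallest p of the difference, *scyl*, an inhibitor of TOR like *chrb*, had a change of 0.45 in the feeding and -0.64 in the fasting window. Under TRF it stood at 797 CPM at ZT7 and at 307 to 417 CPM at ZT15, ZT19 and ZT23, and under ALF at 387 to 618 CPM. The difference was -1.09 (edgeR adjusted p = 0.906). *chrb* itself had changes of -0.01 and -1.23. *Sir2*, a deacetylase, had 0.05 and -0.75, and *laza*, a lipid phosphate phosphatase, -0.67 and 1.28. *CG11619* (0.40 and -1.68) and *Vha100-5*, a proton pump subunit (-2.18 and 3.00), had differences of -2.07 and 5.18.

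**Figure D5:**
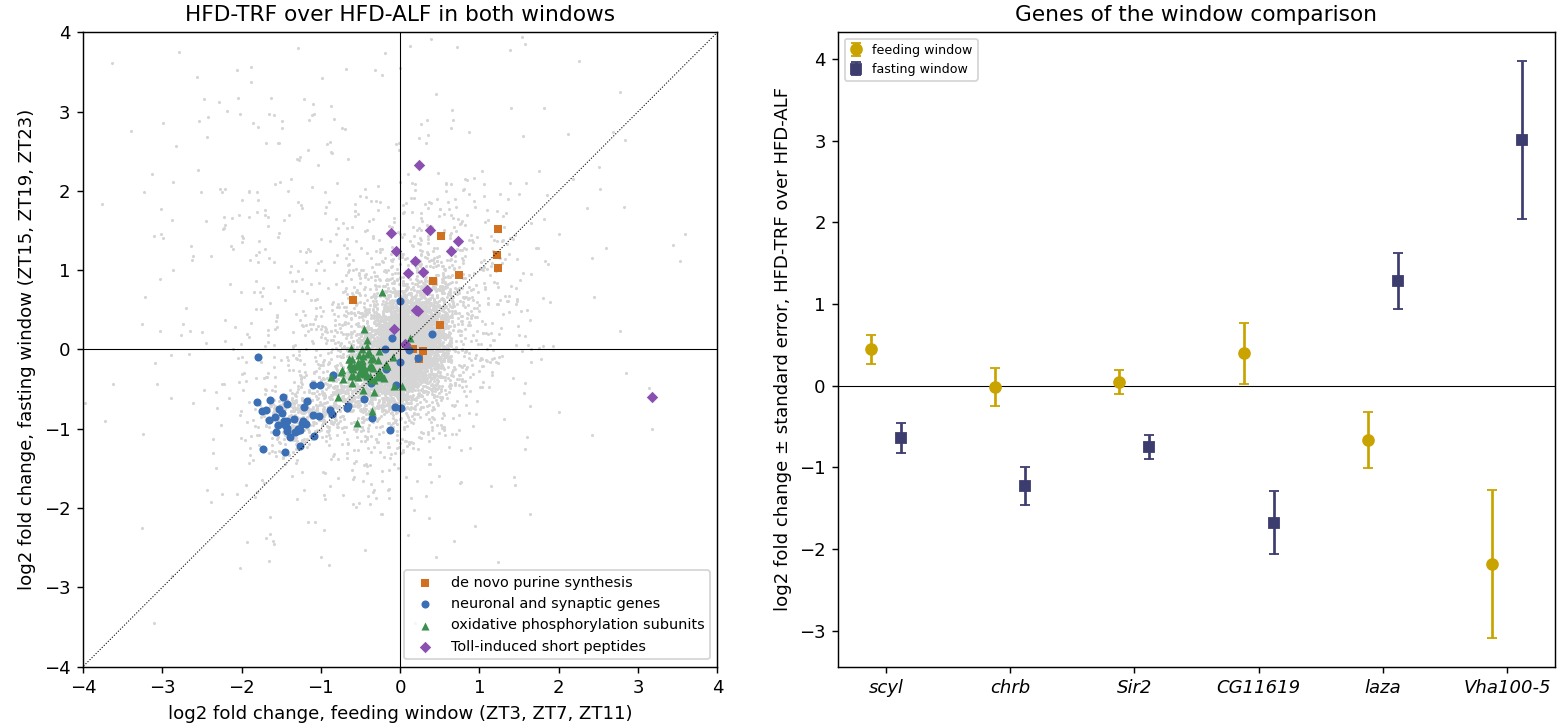
Left, change in the fasting window (y axis) against change in the feeding window (x axis) for the genes tested (log2 fold change, HFD-TRF minus HFD-ALF), with 4 lists coloured, a dotted line of equal change and 14 genes outside the limits of 4. Right, both changes with their standard errors for 6 genes, with *scyl* at 0.45 in the feeding and -0.64 in the fasting window.

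The change under TRF on the HFD was last set against that in WT and in *Sk2*, in the same fit. In WT 2.72% of genes were called higher and 3.24% lower, and in *Sk2* 2.79% and 3.94%. The change differed between HFD and WT in 768 genes (7.68%), with 0 at an adjusted p under 0.05 in edgeR, 798 at an unadjusted p under 0.05 and 3 at an adjusted p under 0.05 in DESeq2. It differed between HFD and *Sk2* in 1207 genes (12.1%), with 4 at an adjusted p under 0.05. The fall of the neuronal genes was the list most often different from WT. Of its 58 members 40 passed for the difference, the WT median was 0.34 with 0 called, and the lowest adjusted p was 0.478. *Dscam4*, an adhesion molecule outside the neuronal list, had -1.18 on the HFD and 1.32 in WT, a difference of -2.50 (edgeR adjusted p = 0.346).

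Purine genes had positive medians in both other models, 0.40 in WT with 0 of 11 called and 0.17 in *Sk2* with 1 called. The difference passed for 1 gene against WT and 3 against *Sk2*, so for most of the 7 genes that rose on the HFD a difference between models was not shown. *Prat2* changed by 0.41 in WT and 0.14 in *Sk2*, and its difference from the HFD flies was 0.81 and 1.08 (edgeR adjusted p = 0.589 and 0.28). Of the 11 glycine, sarcosine and methionine genes, 1 was called higher in WT and 2 in *Sk2*, among them *Gnmt* at 2.13. The difference from the HFD flies passed for 2 of them against WT and 1 against *Sk2*. The study reported *Gnmt*, *Sardh* and *Tdh* (CG5955) as higher under TRF in WT, HFD and *Sk2*. Antimicrobial peptides went the other way in *Sk2*, with a median of -1.40 and 4 of 18 lower, and 10 passed for the difference (lowest adjusted p = 0.241). In WT their median was 1.04 with 0 called, and 0 passed for the difference from the HFD flies. In the Toll cascade list 12 of 24 differed from *Sk2* and 3 from WT. In WT its median was 0.20, and 5 members were called higher, among them *SPE* (0.56). *edin* had a change of -4.32 in *Sk2*, a difference of 6.96 (edgeR adjusted p = 0.121). Oxidative phosphorylation subunits had a median of 0.38 in *Sk2* with 14 higher, and 41 of 71 differed from the HFD flies (lowest adjusted p = 0.199). In WT their median was 0.22, and 14 differed.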

How the data were processed

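The deposited table holds unnormalized counts of reads, made by the authors, for 16727 genes in 36 libraries. Per the file headers, counting was done with featureCounts 1.5.0-p1 over exons on the reverse strand of dm6. The processing notes name STAR 2.5.3a, CASAVA 1.8, FastQC 0.11.8 and HOMER 4.10, the paper another STAR version. Short reads from near-identical paralogues, such as cecropins or GstD genes, may be lost or misassigned. RefSeq symbols were matched for 16508 genes.

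Counts of 34 libraries, without the 2 the study excluded, were normalized by TMM after filterByExpr and tested by the quasi-likelihood F-test on 6 group means (edgeR 4.0.16 under R 4.3.3), with the SE taken from the F statistic. Benjamini-Hochberg adjustment covered all 9996 genes. DESeq2 1.42.0, other filters and scalings, and the omission of libraries were alternatives. Exact permutation tests used SciPy 1.17.1. The main, window and model difference tests of edgeR and the main test of DESeq2 were run on simulated counts with known changes. The simulated counts held no effect of time of day. The permutation tests, the time point block and the other checks were not run on them. All 66 pairs of HFD libraries differed beyond sampling noise (chi-square per gene at least 64.9).

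The members and gene lists were chosen with earlier results of these data known. Genes to name were drawn from those with an adjusted p under 0.05 and from members of the purine, folate and glycine lists. They were also drawn from the 10 largest rises and falls with a mean count of at least 50 and 1 direction at all time points. Further sources were up to 4 called members of other lists, the 5 smallest p-values of each difference, and genes the study names. Not all are described above, and *CG43920* (2.71), *CG13992* (-2.18) and *CG5246* (-1.83) are among those left out. Others (such as *Syt1*, *elav*, *Dh31* or *edin* where used as examples, members of lists beyond 4, and markers that did not move) were chosen after their values were seen.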

Additional observations from a re-analysis of the deposited data

Results flagged for a closer look

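Within a regimen, the highest or lowest of 6 libraries stood apart from the others in 10 of 146 sets of values (by the gap to the nearest library over the whole range), where chance gives about 1 in 20. Under TRF these were *CG6767* at 727 CPM (ZT11), *Sardh* (CG6385) at 13.2 CPM (ZT7), *Dh31* at 24.1 CPM (ZT23), *Dgat2* (CG1942) at 0.528 CPM (ZT7), *laza* at 14.3 CPM (ZT15), the summed Toll-induced short peptides at 9370 CPM (ZT19) and the summed IFM markers at 32113 CPM (ZT3). Under ALF they were all at ZT7, with *edin* at 94.7 CPM, *Got2* at 247 CPM and the summed glial markers at 1647 CPM, the last as the lowest value.

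The change under TRF differed between HFD and *Sk2* at an adjusted p under 0.05 (edgeR) in 4 genes. *scpr-C* differed by -2.44 (adjusted p = 0.011), with -0.63 on the HFD and 1.81 in *Sk2*. *Gld*, glucose dehydrogenase, differed by 3.53 (adjusted p = 0.028), *CG32809* by -1.15 (adjusted p = 0.028) and *Ntmt* by -0.69 (adjusted p = 0.0362).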

How the results depend on the processing

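On the HFD, genes called higher numbered 248 over all 36 libraries, 232 under a filter of 10 or more counts per library, and 657 without both ZT7 libraries. Genes called lower numbered 484 in the 12 HFD libraries with the time point as a replicate block and 416 without HFD-TRF at ZT11 and ZT15. An adjusted p under 0.05 was reached by 0 genes over all 36 libraries, in the 12 HFD libraries with or without the block and without HFD-ALF at ZT3 and ZT23, by 1 without HFD-TRF at ZT11 and ZT15, by 65 without both ZT7 libraries and by 52 with DESeq2. With 1 library left out, 286 to 686 genes were higher, 531 to 890 lower and 0 to 101 had an adjusted p under 0.05, the highest of each without HFD-ALF at ZT7. Of the 122 called genes looked at, 112 kept their call without both ZT7 libraries. The number was 88 without HFD-TRF at ZT11 and ZT15 and 82 without HFD-ALF at ZT3 and ZT23. *Prat*, not called in the main test at -0.05, ranged from -0.19 to 0.49 with 1 library left out and was called higher at 0.49, without HFD-ALF at ZT7.

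In the feeding window 97 genes were higher over all 36 libraries, and 118 were higher and 268 lower in the 12 HFD libraries, with 1 adjusted call by DESeq2. Leaving out 1 library gave 168 to 416 higher and 214 to 628 lower, with 0 adjusted calls. In the fasting window 278 were higher and 258 lower over all 36 libraries, and 179 lower in the 12 HFD libraries. Adjusted calls there were 0 in both, 0 with RLE size factors and 46 with DESeq2. Leaving out 1 library gave 237 to 758 higher, 181 to 692 lower and 0 to 8 adjusted calls. For the difference between windows, 57 (36 libraries) and 50 (12 libraries) were lower, and leaving out 1 library gave 90 to 329 higher and 100 to 342 lower. Between HFD and WT 140 were higher over 36 libraries, 3 were adjusted calls by DESeq2, and leaving out 1 library gave 154 to 447 higher and 420 to 592 lower. Between HFD and *Sk2* adjusted calls were 2 over 36 libraries, 0 with the block and 34 by DESeq2, and leaving out 1 library gave 1 to 29, with 425 to 847 higher and 384 to 795 lower. The causes were not tested.

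ALF and TRF libraries of the same number shared their time of day but came from separate pools of flies. Their deviations from the regimen means correlated at -0.115 to 0.439, over 0.1 in 3 of 6 pairs, with a mean of 0.138 against -0.0269 between different time points, and 1 of 6 ALF libraries correlated best with its own time point. With the time point as a replicate block over 34 libraries, 414 genes were higher, 686 lower and 7 had an adjusted p under 0.05. Among neuronal genes 42 were then lower, and 11 oxidative phosphorylation subunits.

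With 1 library per time point, a change at a single time cannot be told from the variation of pools. Genes near the floor of 3 counts, such as *Lip3* and *CG1946*, are limited by depth, which was higher under TRF; thinned to the smallest HFD library, 382 genes were higher, 667 lower and 9 had an adjusted p under 0.05.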
